A study of Mus musculus with 3 samples.

Results

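The Ifi200 genes, also called the PYHIN or HIN-200 genes, lie close together in the distal part of mouse chromosome 1. The 9 genes described here, Aim2, Pyhin1, AI607873, Ifi204, Mndal, Mnda, Ifi203, Ifi202b and Ifi205, were chosen by their symbols and make up 9 of the 23238 gene symbols in the count data. The choice was made after the levels of several of them had been seen in these libraries, so their direction is a description and carries no test. RNA came from c2c12 cells, an immortalized mouse myoblast line, kept for 2 days in myogenic induction medium with 2% horse serum. The cells grew on a tissue culture plate (TCP), on a hydrogel of 15% w/v methacrylated gelatin (GelMA), or on the same hydrogel with 1% w/v of the negatively charged polymer poly sodium 4-styrenesulfonate (GelMA-PSS). All 3 groups share the cell line and the medium, and c2c12 is a single immortalized line rather than primary muscle cells. Each substrate has 1 library, so the differences below could not be set against a spread between cultures, and none carries a p-value.

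Most proteins of the family carry a pyrin domain, through which they bind other pyrin proteins, and a HIN domain that binds DNA. They are best known in white blood cells, where many are induced by interferon. Aim2 senses DNA in the cytosol and assembles an inflammasome with the adaptor Asc, encoded by Pycard, and caspase-1. The product of Ifi202b, p202, has no pyrin domain and inhibits Aim2. In muscle biology the family is known through p202, which binds MyoD and myogenin, and through p204, the product of Ifi204, which is induced during myoblast differentiation and binds the Id proteins that hold MyoD inactive.

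In the GelMA-PSS library 6 of the 9 genes had a higher level than in both controls. Their order of levels was the same in each case, with TCP lowest, GelMA between and GelMA-PSS highest. The 6 were Ifi204, Mndal, Mnda, Ifi203, Ifi202b and Ifi205, which follow one another along the chromosome. Of all 13169 genes that reached 1 CPM (TMM-scaled counts, per 1000000) in some library, 45.3% were above both controls and 22.5% had that order. The other members stand at the Aim2 end of the cluster. Pyhin1 and AI607873 were below both controls, which held for 39.3% of all genes, and Aim2 lay between them.

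Promoters of several members share a short element. The letters GAAA followed by any 2 bases and GAAA again, a simple form of the interferon-stimulated response element bound by interferon regulatory factors, were searched on both strands from 250 bases before to 50 bases after each RefSeq start site in GRCm38.p6. RefSeq start sites were used for 8 members, without Ifi204, and 5 of these 8 had the element in at least 1 window. The element was found in 3.44% of 32851 promoter windows of this length and in 3.99% of genes. It also stood in the promoters of Pydc3 and Pydc4, further family genes of the cluster described below. The matches with 15 bases on each side are shown 5′ to 3′ on the strand of the gene, with the element in capitals, because they show how alike the surroundings are. The sequence is that of the C57BL/6J reference, whereas c2c12 cells come from C3H mice.
AI607873, chr1:173741826-173741865, minus strand: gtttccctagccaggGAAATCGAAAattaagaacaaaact
Mnda, chr1:173913059-173913098, minus strand: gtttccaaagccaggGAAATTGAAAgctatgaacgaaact
Ifi205, chr1:174031865-174031904, minus strand: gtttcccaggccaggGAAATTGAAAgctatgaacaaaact
Mndal, chr1:173880199-173880238, minus strand: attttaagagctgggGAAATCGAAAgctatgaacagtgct
Ifi203, chr1:173942503-173942542, minus strand: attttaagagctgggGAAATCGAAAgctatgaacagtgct
Pydc3, chr1:173673592-173673631, plus strand: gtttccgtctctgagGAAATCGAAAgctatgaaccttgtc
Pydc4, chr1:173599321-173599360, minus strand: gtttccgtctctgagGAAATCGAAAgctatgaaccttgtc

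The printed matches of Mndal and Ifi203 were identical, and so were those of Pydc3 and Pydc4. The first base of the element lay 41 bases before the start in AI607873, 37 in Mnda, 36 in Mndal, 35 in Ifi203 and 134 in Ifi205. It lay 58 bases before the start in Pydc3 and 73 in Pydc4. Ifi205 had another match on the opposite strand 23 bases after its start, and Mndal had another on the opposite strand 54 bases before its alternative start. Ifi203 had a match at 1 of its start sites and none at the other. The promoters of Ifi203 and Mndal shared an unbroken run of 139 bases, those of Ifi205 and Mnda one of 45 bases, and that of AI607873 one of 31 bases with each of these last genes. Of the 5 members with the element, Mndal, Mnda, Ifi203 and Ifi205 were above both controls in GelMA-PSS and AI607873 was not. Pydc3 and Pydc4, which also had the element, were below both controls, at a CPM below 1 in every library. Of the members searched without a match, Ifi202b was above both controls and Aim2 and Pyhin1 were not. A link between the element and the levels was not tested.

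The Ifi202b promoter had instead the letters TTCNNNGAA, a gamma-activated site, an element known from promoters that answer to interferon gamma. These letters stood in 8.30% of promoter windows. The match is shown in capitals because none of the other promoters searched had one.
Ifi202b, chr1:173982969-173983007, minus strand: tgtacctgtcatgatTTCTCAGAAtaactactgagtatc

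Its first base lay 148 bases before the start. The E-box CAGCTG, a sequence that MyoD binds, was found in 16.3% of promoter windows and among the members in Pyhin1. The promoters of Pydc3 and Pydc4 also held it. A match of letters is a description of the window and not a measured binding site.

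Ifi202b encodes p202, the pyrin-less inhibitor of Aim2. It spans chr1:173962568-173982744 on the minus strand (GRCm38, GENCODE vM21) and had 3746 counts in TCP, 3885 in GelMA and 16239 in GelMA-PSS. The levels were a CPM of 30.8, 42.8 and 89.6, so GelMA-PSS stood well above both controls and GelMA above TCP. The ratio of CPM was 2.10 between GelMA-PSS and GelMA (95% interval 2.02 to 2.17) and 2.91 between GelMA-PSS and TCP (2.81 to 3.02). The intervals of all ratios are exact, those of single levels are Wilson intervals, and both cover the counting of reads only. They say nothing of differences between cultures, and counting each read of a pair on its own, if it was done, would make them too narrow. Ifi202b was the single member that passed 2-fold against both controls on log2(CPM + 1), as did 1.37% of all genes. On that scale GelMA was 0.46 above TCP, and GelMA-PSS was 1.05 above GelMA and 1.51 above TCP.

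Aim2, the DNA sensor that p202 inhibits, was low in every library. It spans chr1:173350879-173466040 on the plus strand. Counts were 131 in TCP, 70 in GelMA and 163 in GelMA-PSS, which gave a CPM of 1.08, 0.770 and 0.900. GelMA-PSS lay between the controls, and the intervals of its ratio included 1 against GelMA (1.17, 0.878 to 1.57) and against TCP (0.836, 0.660 to 1.06). No difference between GelMA-PSS and either control was therefore detectable for Aim2 at this depth.

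Ifi204 encodes p204, the member known as a target and helper of MyoD. It spans chr1:173747293-173766943 on the minus strand. With 5022, 4082 and 10065 counts, its CPM was 41.2 in TCP, 44.9 in GelMA and 55.6 in GelMA-PSS. It was the member with the highest CPM in TCP and the fourth in GelMA-PSS. The ratio of CPM was 1.09 between GelMA and TCP (1.04 to 1.14) and 1.24 between GelMA-PSS and GelMA (1.19 to 1.28), so the 3 libraries were closer for Ifi204 than for any other of the 6 genes above both controls.

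Mndal, Mnda and Ifi203 are pyrin and HIN genes whose annotated spans meet or overlap. Mndal spans chr1:173849126-173942491 on the minus strand, Mnda, which the annotation names Ifi211, spans chr1:173896345-173913046 within it, and Ifi203 spans chr1:173920407-173942672 and overlaps its end. Mndal had 3373, 3847 and 13309 counts, a CPM of 27.7 in TCP, 42.3 in GelMA and 73.5 in GelMA-PSS. Its ratio of CPM was 1.74 between GelMA-PSS and GelMA (1.67 to 1.80) and 2.65 between GelMA-PSS and TCP (2.55 to 2.76). GelMA-PSS was thus highest and TCP lowest, with GelMA nearer to TCP in CPM.

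Ifi203 had the largest difference between the controls among the members. Its counts were 1566, 2019 and 7477, and its CPM was 12.9 in TCP, 22.2 in GelMA and 41.3 in GelMA-PSS. The ratio of CPM to TCP was 1.73 in GelMA (1.62 to 1.85) and 3.21 in GelMA-PSS (3.04 to 3.39), and GelMA-PSS was 1.86 times GelMA (1.77 to 1.95). As a ratio, the step from TCP to GelMA was therefore nearly as large as the step from GelMA to GelMA-PSS. In CPM, GelMA was nearer to TCP, as it was for Mndal.

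Mnda had 4008, 3897 and 12503 counts, a CPM of 32.9, 42.9 and 69.0. Its ratio of CPM was 1.61 between GelMA-PSS and GelMA (1.55 to 1.67) and 2.10 between GelMA-PSS and TCP (2.02 to 2.17). Values of Mnda are uncertain, because 56.9% of the 100-base windows of its transcripts also occur in other genes. Of all its windows, 37.3% occur in Ifi205 and 19.6% in Ifi204. The share of windows found in any other gene was 16.9% for Pyhin1, 15.0% for Ifi205, 10.7% for Ifi204, 6.38% for Mndal, 2.84% for Ifi203 and 0.790% for AI607873. Aim2 and Ifi202b shared 0 such windows. How reads from shared stretches were assigned is not given in the sources used here.

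Ifi205, at the far end of the cluster at chr1:174011998-174031810 on the minus strand, was the least abundant of the 6. It had 375, 449 and 1816 counts, a CPM of 3.08 in TCP, 4.94 in GelMA and 10.02 in GelMA-PSS. The ratio of CPM to TCP was 1.60 in GelMA (1.40 to 1.85) and 3.26 in GelMA-PSS (2.91 to 3.65), and GelMA-PSS was 2.03 times GelMA (1.83 to 2.25). Ifi205 stood just outside the 2-fold limit, since its difference between GelMA-PSS and GelMA was 0.89 on log2(CPM + 1), a scale on which changes at low counts appear smaller. Ifi202b stood just inside with 1.05.

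Pyhin1 and AI607873 were low. Pyhin1, named Ifi209 in the annotation, spans chr1:173630917-173647928 on the plus strand and had 212, 177 and 180 counts, a CPM of 1.74, 1.95 and 0.994. The ratio of CPM was 0.510 between GelMA-PSS and GelMA (0.412 to 0.631) and 0.571 between GelMA-PSS and TCP (0.465 to 0.699), so GelMA-PSS was the lowest library. AI607873, named Ifi207, spans chr1:173723427-173741747 on the minus strand, with 525, 369 and 714 counts and a CPM of 4.31, 4.06 and 3.94. Its intervals included 1 against GelMA (0.971, 0.855 to 1.10) and against TCP (0.914, 0.816 to 1.03), so no difference was detectable.

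**Figure D1:**
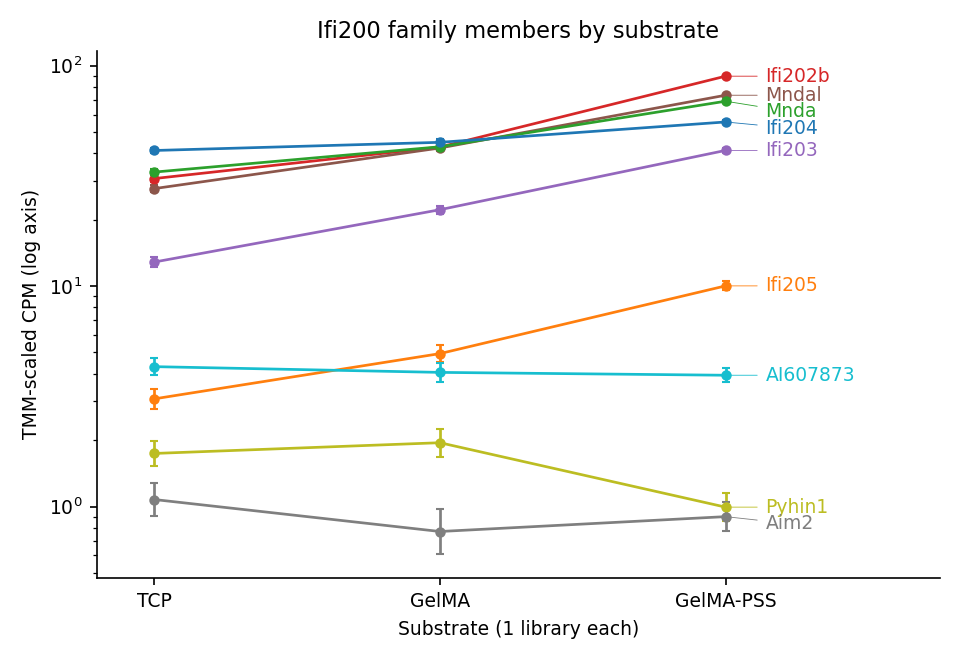
CPM on a log axis of the 9 genes in the TCP, GelMA and GelMA-PSS libraries, 1 point per library, with bars for the 95% Wilson interval, which covers counting error only. Ifi202b runs from 30.8 in TCP to 89.6 in GelMA-PSS, whereas Aim2 stays between 0.770 and 1.08.

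Levels per kilobase, taken over the annotated transcript chosen for each gene, changed order between the libraries. The place of Mnda is uncertain, because 56.9% of the 100-base windows of its transcripts also occur in other genes. The intervals cover counting only, and the trend with transcript length described below was not removed here. In TCP, Mnda (18.4 CPM per kb), Ifi202b (18.1) and Ifi204 (18.0) led with overlapping intervals, followed by Mndal at 13.7. In GelMA, Ifi202b (25.2) and Mnda (24.0) overlapped, ahead of Mndal (20.9) and Ifi204 (19.6). In GelMA-PSS the order was Ifi202b (52.8), Mnda (38.7), Mndal (36.3) and Ifi204 (24.2), and no interval overlapped the next. Ifi203, Ifi205 and AI607873 followed in that order in each library, from 4.21 CPM per kb for Ifi203 in TCP to 13.5 in GelMA-PSS. Pyhin1 and Aim2 were last, and their intervals overlapped in TCP and in GelMA-PSS.

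Summed, the 9 genes reached a CPM of 156 in TCP, 207 in GelMA and 345 in GelMA-PSS. The GelMA-PSS sum was 1.67 times that of GelMA and 2.21 times that of TCP, and the GelMA sum was 1.33 times that of TCP. The 5 neighbouring genes from Mndal to Ifi205, a stretch set apart after the values were seen, made up 68.9% of the family's CPM in TCP, 75.0% in GelMA and 82.2% in GelMA-PSS. Aim2, Pyhin1 and AI607873 together made up 4.58%, 3.28% and 1.69%, with sums of 7.13, 6.78 and 5.83. The RNA of the family was therefore made up more by the genes from Mndal to Ifi205 in GelMA-PSS than in either control. In bulk RNA, more cells that express a gene and more RNA per cell cannot be told apart.

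**Figure D2:**
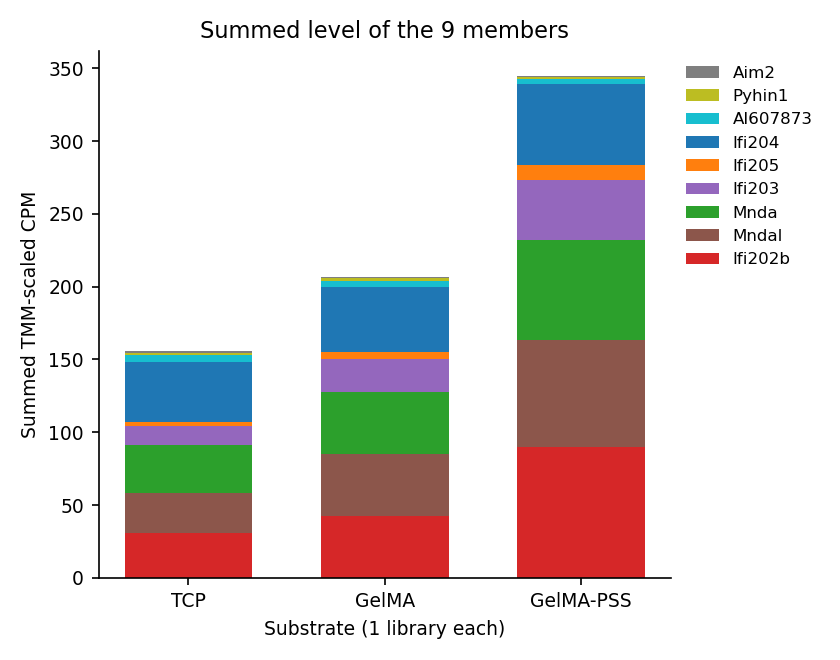
Summed CPM of the 9 genes in each library, stacked by gene on an axis that starts at 0. The sums are 156 in TCP, 207 in GelMA and 345 in GelMA-PSS.

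The cluster covers 680932 bases, chr1:173350879-174031810. The mean-of-controls difference, GelMA-PSS minus the mean of GelMA and TCP on log2(CPM + 1), was -0.01 for Aim2, -0.51 for Pyhin1, -0.07 for AI607873 and 0.36 for Ifi204. It was 1.08 for Mndal, 0.86 for Mnda, 1.24 for Ifi203, 1.28 for Ifi202b and 1.16 for Ifi205. The median of the 9 genes was 0.86, against 0.03 for all genes tested, and 5 of the 9 lay above the 95th percentile of all genes (0.80). The 9 were chosen after several of their levels had been seen, so their place among all genes is a description only. With the correction for transcript length described below, the medians were 0.62 and 0.002.

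**Figure D3:**
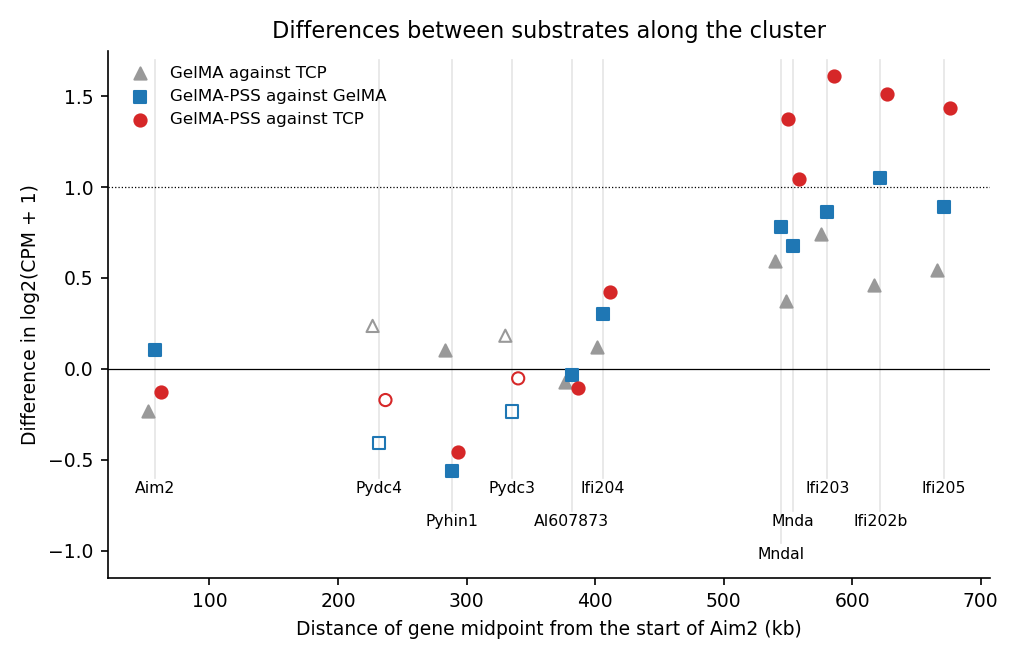
Difference on log2(CPM + 1) for each gene against the distance in kb of its midpoint from the start of Aim2, with triangles for GelMA minus TCP, squares for GelMA-PSS minus GelMA and circles for GelMA-PSS minus TCP, set slightly apart along the axis so that all can be seen. Open symbols are Pydc3 and Pydc4, which stayed below a CPM of 1, and the dotted line marks 2-fold. The 5 genes from Mndal to Ifi205 have GelMA-PSS minus TCP values from 1.05 to 1.61, whereas Aim2, Pyhin1 and AI607873 lie at or below -0.10.

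Against GelMA, 1 member passed 2-fold higher, as did 1.77% of all genes, and 0 passed lower (2.33%). Against TCP, 5 members passed 2-fold higher, as did 3.72% of all genes, and 0 passed lower (3.13%). Mnda, with a difference of 1.05, is the nearest of the 5 to the limit and fell short of it when libraries were scaled by their totals (0.94) and after a correction for transcript length (0.83). From TCP to GelMA, 0 members passed higher (0.706% of all genes) and 0 lower (0.296%). The comparisons share libraries, so their counts are not independent of one another. At 1.5-fold against both controls, 5 members were higher, as were 8.08% of all genes, and 0 were lower (7.18%). The 5 were the 5 genes from Mndal to Ifi205.

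Further genes of the family were found under 3 symbols, none of them with a higher level in GelMA-PSS than in both controls. Pydc3, which the annotation names Ifi208, had 8, 19 and 5 counts in TCP, GelMA and GelMA-PSS, and Pydc4, named Ifi213, had 26, 39 and 14. Both stayed below a CPM of 1 in every library. BC094916, for which no position was matched, had a CPM of 1.68, 1.45 and 0.712. Its ratio of CPM was 0.490 between GelMA-PSS and GelMA (0.382 to 0.630).

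Genes beside the cluster were mostly below a CPM of 1 or without any count. Of 41 symbols within 1 Mb of either end, many of them olfactory receptors, 5 had a CPM of 1 or more in some library. None of these 5 passed 2-fold against both controls, where 1.37% of all genes passed higher and 1.16% lower. Tagln2, which encodes an actin-binding protein, came nearest with a CPM of 160 in TCP, 229 in GelMA and 381 in GelMA-PSS and a mean-of-controls difference of 0.99. Kcnj10 (-0.51), Pigm (-0.48) and Igsf9 (-0.59) had lower values in GelMA-PSS.

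Transcript length moved with the differences across all genes. Spearman's rho between length and the mean-of-controls difference was -0.593 over 13059 genes, which share the same 3 libraries and are not independent replicates, and -0.7 over the 9 members. Short transcripts thus tended to have higher values in GelMA-PSS. The median length was 2296 bases for the members and 2914 for all genes. With a smooth trend on length removed, the mean-of-controls difference was 1.21 for Ifi203, 1.02 for Ifi202b, 0.89 for Mndal, 0.88 for Ifi205, 0.62 for Mnda, 0.23 for Ifi204, -0.04 for AI607873, -0.07 for Aim2 and -0.48 for Pyhin1. Ifi203, whose transcript of 3054 bases is longer than the median, hardly moved, and Ifi202b, with 1697 bases, no longer passed 2-fold against GelMA (0.75). The part of length in these differences was not tested further.

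**Figure D4:**
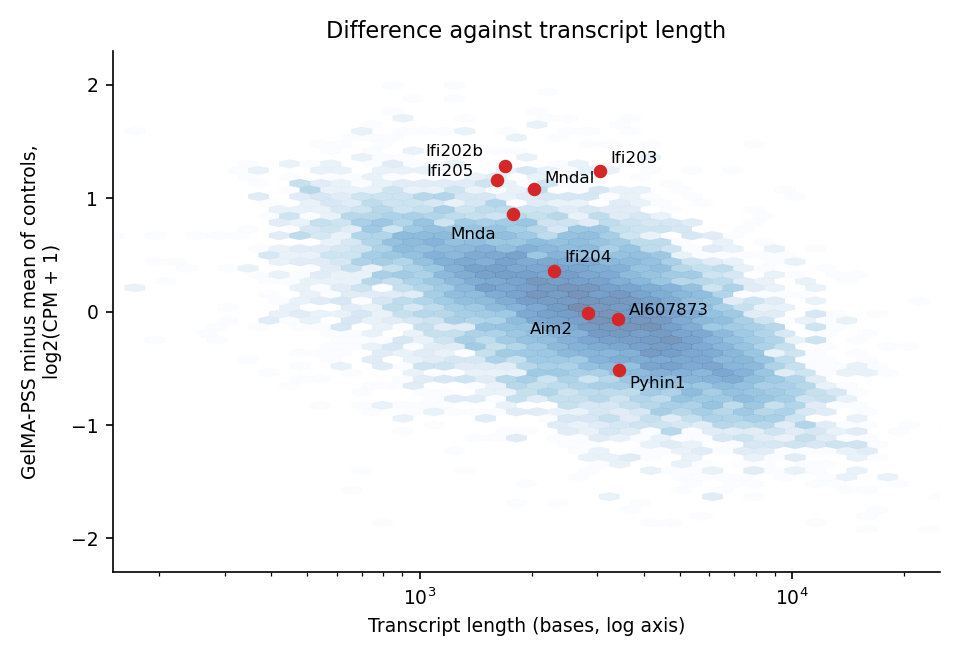
Mean-of-controls difference on log2(CPM + 1) against transcript length on a log axis, with all genes as hexagons shaded by number and the 9 members in red; 32 genes beyond 2 in either direction are not drawn. Ifi203 and Ifi202b lie at the upper edge of the genes of their length, and Aim2 and AI607873 lie in the middle.

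Among the partners of the p200 proteins, the Id genes had the largest differences. Of 23 listed genes 21 were tested, and Id3 was the single one past 2-fold against both controls. Of all genes 1.37% passed higher and 1.16% lower. Id3, an inhibitor of MyoD and other helix-loop-helix factors, had a CPM of 15.2 in TCP, 26.0 in GelMA and 62.1 in GelMA-PSS. Id1 had 10.8, 11.8 and 21.1, and Id2 had 19.7, 23.1 and 33.4, whereas Id4 stayed below a CPM of 1. All 3 Id genes expressed here had the order TCP, GelMA, GelMA-PSS, as did 6 of the 21 tested partners and 22.5% of all genes.

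The muscle factors that p202 and p204 are known to bind or to answer to differed less. Myod1 had a CPM of 94.3, 105 and 119, a mean-of-controls difference of 0.26, and Myog, which encodes myogenin, had 0.06. The differences were 0.27 for E2f1 and 0.05 for E2f4, both cell cycle factors, and -0.13 for Ubtf, the ribosomal RNA transcription factor UBF. Rb1, the retinoblastoma gene, was lower in GelMA-PSS, with a CPM of 207 in TCP, 141 in GelMA and 113 in GelMA-PSS. Its relatives Rbl1 and Rbl2 had differences of 0.18 and -0.29. Over the 21 tested partners 9 were above both controls and 9 below, with a median of 0.05. Of all genes 45.3% were above both and 39.3% below.

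The other listed partners lay between -0.56 and 0.34. These were Runx2 (-0.38), Gata4 (-0.19) and Tbx5 (-0.56), which are bone and heart factors, Trp53bp1 (-0.43), Nfkb1 (-0.27) and Rela (0.02) of the NF-kappaB pathway, and Fos (0.34), Jun (0.19), Myc (-0.38) and Max (0.07). Nkx2-5 was below a CPM of 1 in every library.

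Pycard and Casp1, whose products form the inflammasome with Aim2, were low. Pycard, which encodes the Asc adaptor, had 29, 18 and 45 counts, a CPM of 0.238, 0.198 and 0.248, and Casp1 had 0.493, 0.704 and 0.684. Of the 19 listed genes 9 stayed below a CPM of 1 in every library, these included. Over all genes 45.3% were above both controls and 39.3% below, and 1.37% passed 2-fold higher and 1.16% lower. With such shares, 0 calls in a list of this size says little. Of the 10 tested, 0 passed 2-fold against both controls, 6 were above both and 2 below, and the median difference was 0.26. The largest were Il18, a cytokine that caspase-1 matures, with a CPM of 5.63, 6.48 and 13.5, Casp4, the caspase of the non-canonical inflammasome, with 4.87, 7.90 and 11.4, and Casp8, an initiator of apoptosis, with 14.4, 15.5 and 25.2.

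Genes of nucleic acid sensing other than Aim2, which include nucleases and kinases as well as sensors, were listed too. Of 23 listed genes 20 were tested, 16 were above both controls and 3 below, and the median difference was 0.24. None passed 2-fold against both controls, but only 1.37% of all genes passed higher and 1.16% lower, so this says little. The largest differences were 0.91 for Rnaseh2c and 0.64 for Rnaseh2b, subunits of an enzyme that removes RNA from DNA, and -0.69 for Prkdc, the DNA-dependent protein kinase. The share above both controls, 16 of 20, can be set beside the 45.3% of all genes.

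Interferon genes and their targets were listed as well. Of 23 interferon signalling genes 17 were tested, with 0 past 2-fold, 10 above and 3 below both controls, and a median difference of 0.26. The shares of all genes were 1.37% past 2-fold higher, 1.16% lower, 45.3% above both and 39.3% below. The largest differences were 0.52 for Socs1, an inhibitor of the pathway, 0.51 for the receptor gene Ifnar2 and 0.44 for the receptor gene Ifngr1. Ifnb1, which encodes interferon beta, had 0 counts in all 3 libraries, which allows up to 3 counts, a CPM of 0.0246 in TCP, 0.0330 in GelMA and 0.0166 in GelMA-PSS.

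Of 44 interferon-stimulated genes outside the family, 17 stayed below a CPM of 1 in every library, among them Mx1, Rsad2 and Ifit1. In TCP, GelMA and GelMA-PSS, Ifit1 had a CPM of 0.238, 0.440 and 0.905, the order of the rising members. Mx1 had 0.255, 0.154 and 0.171, and Rsad2 had 0.181, 0.484 and 0.309. Of the 27 tested, 0 passed 2-fold against both controls, 15 were above both and 7 below. The shares of all genes were 1.37% past 2-fold higher, 1.16% lower, 45.3% above both and 39.3% below. The 9 members had a median difference of 0.86, but they were chosen after several of their levels had been seen. The median difference of the 27 was 0.17. The largest were Ifitm3, a restriction factor of viral entry, with a CPM of 92.9, 132 and 227, Bst2, which encodes tetherin, with 9.03, 11.3 and 18.2, and B2m, the class I light chain, with 408, 324 and 620. Ifitm3 and Bst2 had the order TCP, GelMA, GelMA-PSS, and B2m was lowest in GelMA.

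**Figure D5:**
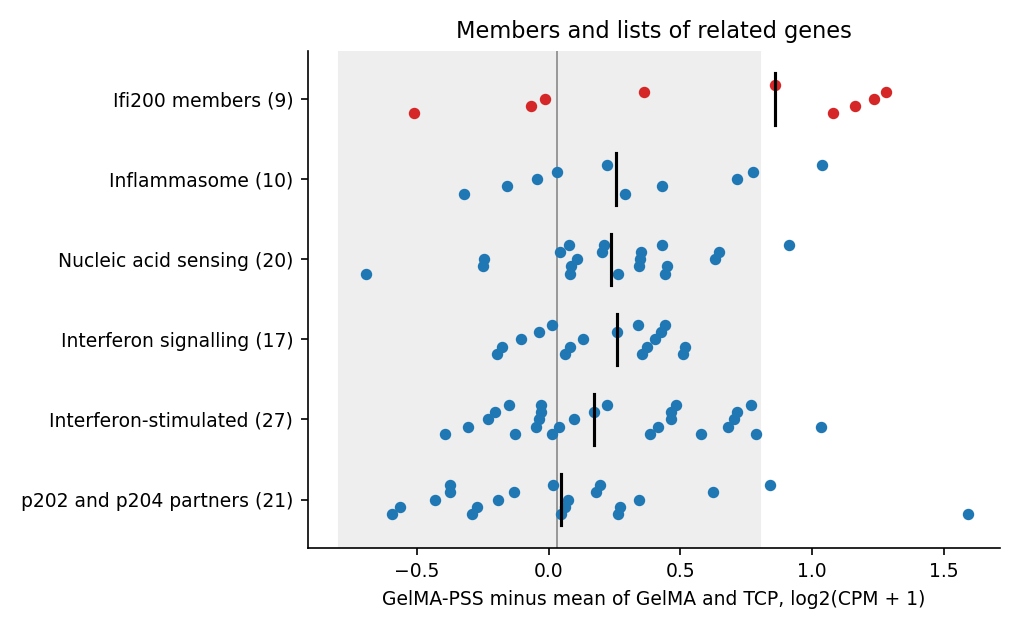
Mean-of-controls difference on log2(CPM + 1) of every tested gene in each list, 1 point per gene, with the median of each list marked. The grey line is the median of all tested genes (0.03). The grey band runs from their 5th to their 95th percentile (-0.795 to 0.80). The members' median is 0.86 and that of the interferon-stimulated genes 0.17. The members were chosen after several of their levels had been seen.

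The libraries carried the labelled cell type. All 8 muscle markers were detected, and their median mean-of-controls difference was -0.22. Des, which encodes desmin, had a CPM of 3299 in TCP, 2863 in GelMA and 3154 in GelMA-PSS. Myh3, an embryonic myosin, was the 1 marker past 2-fold lower against both controls, at 10182, 6355 and 3037. Because the family is best known in white blood cells, 13 blood and myeloid markers were listed, and 10 of them stayed below a CPM of 1 in every library. Ptprc, which marks all white blood cells, had 0, 0 and 4 counts, and Adgre1, a macrophage marker, had 0, 1 and 0. The summed CPM of the 13 was 5.16 in TCP, 6.37 in GelMA and 6.08 in GelMA-PSS, mostly from Cd14 (2.12, 3.66 and 3.82) and Cd68 (1.53, 1.71 and 1.37). The markers at 0 counts numbered 4, 6 and 2. The 5 endothelial markers were all below a CPM of 1 and summed to 0.788, 0.726 and 0.905, and the 4 fibroblast markers summed to 331, 377 and 368. Total counts were 119799095 in TCP, 87071144 in GelMA and 192171443 in GelMA-PSS, so the depth was greatest in the library in which most of the members were highest, and CPM was used throughout for that reason.

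Genes of like pattern were sought as the 3 with the smallest distance in the differences GelMA minus TCP and GelMA-PSS minus TCP over the 3 libraries. With so few libraries many unrelated genes share a pattern. For Ifi202b these were Krt13 (distance 0.034), Pafah1b3 (0.038) and Tslp (0.047), and Pafah1b3 had a CPM of 17.8, 24.2 and 52.7. For Ifi203 they were Pgk1 (0.020), Gm2016 and Azin2, and Pgk1, a glycolytic enzyme, had 884, 1470 and 2668. Areg, Gas2 and Cenpa were nearest to Ifi205, and Celf4, 1700093K21Rik and Cenpa to Mndal. Pax8, Foxd2os and Nup37 were nearest to Mnda, and Oat, Qars and Tvp23a to Ifi204. The nearest were Zfp763, Slc25a46 and Foxp3 for Aim2, Slc25a27, Ninl and Gtf3c4 for Pyhin1, and Chn2, Cox10 and Eogt for AI607873. Between members the closest pair was Ifi205 and Mndal, at a distance of 0.0785.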

How the data were processed

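Deposited by the authors were unscaled read counts for each gene symbol, 1 file for each of 3 libraries of c2c12 cells. Their methods describe strand-specific paired-end sequencing with a TruSeq kit, whereas the sample labels name a SMARTER kit. The submitters' processing notes name TopHat, edgeR and the builds hg19 and mm10, without roles. The counting tool and how it treated multiply mapped reads are not given in the sources used here.

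Lines with the same symbol were summed, which left 23238 symbols from 23282 lines, and 0 members were affected. Counts were scaled to CPM with TMM factors (1.02, 1.04 and 0.943), computed with numpy 2.4.6 and pandas 2.3.3 in Python 3.11.15 and checked against edgeR 4.0.16. The genes that reached 1 CPM in some library were compared on log2(CPM + 1). A gene passed when it differed 2-fold in the same direction from both controls. Single CPM values have Wilson intervals and ratios of CPM exact conditional binomial intervals at 95% (scipy 1.17.1), for counting error only. Because each substrate has 1 library, no test across genes was made, and the count test was not used.

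Positions and lengths came from GENCODE vM21 (GRCm38). Of the symbols, 22197 were found in it as written, 668 by an older name, and 373 had no match. Of the 9 members 6 matched directly and 3 through older symbols. Promoters came from RefSeq on GRCm38.p6. The length trend was a loess fit with a span of 0.3 (statsmodels 0.14.6). The members, the gene lists and the limits were chosen with earlier results of these data known. The text names all members, other family symbols, up to 3 genes per list with the largest difference, the partners of p202 and p204, and the 3 genes nearest to each member in pattern. Pycard, Casp1, Ifnb1, Mx1, Rsad2, Ifit1 and the neighbours were named after their values were seen. Alternatives were another scaling, pseudocount, fold limit, treatment of repeated lines and a length correction. The calculation was tested on simulated data. A few results are not reported here.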

Additional observations from a re-analysis of the deposited data

How the results depend on the processing

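All 4 differences of all 9 members, under 5 alternatives each, kept their sign in 180 of 180 cases, but many of these cases could not have changed. No member stood on several lines, so the treatment of repeated lines left the members' counts as they were. A pseudocount cannot turn the sign of a difference between a pair of libraries. Counts of genes past the fold depended on the settings. Scaling by the library total without TMM factors moved the median mean-of-controls difference of all genes from 0.03 to -0.08. Genes past 2-fold against both controls then numbered 97 higher and 261 lower in place of 180 and 153, those past it against GelMA 120 higher and 506 lower in place of 233 and 307, and 0 members passed against GelMA or against both, since Ifi202b had 0.91 against GelMA. Against TCP 4 members passed in place of 5, without Mnda. With a pseudocount of 0.1, Ifi205 passed beside Ifi202b, so 2 members passed against GelMA and 2 against both. That setting gave 259 genes higher and 294 lower against both, 213 higher and 106 lower between GelMA and TCP (93 and 39 before), 356 higher and 525 lower against GelMA, and 698 higher and 630 lower against TCP (490 and 412 before). It also gave 1 inflammasome gene, 1 interferon-stimulated gene and 1 neighbour past the fold.

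A 1.5-fold limit gave 5 members and 1064 genes higher and 946 lower against both controls, 5 members, 1448 genes higher and 1423 lower against GelMA, 1738 higher and 1509 lower against TCP, and 2 members, 461 genes higher and 279 lower between GelMA and TCP. It gave 2 inflammasome genes, 3 genes of nucleic acid sensing, 6 interferon-stimulated genes, 2 partners and 1 neighbour. After the length correction 0 members passed against both controls or against GelMA, with 68 genes higher and 89 lower against both, 107 higher and 163 lower against GelMA, and 281 higher against TCP. The cause of these shifts was not tested beyond the settings themselves.

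No paired analysis was possible because each substrate has 1 library. Leaving out a library was not possible either. Counts of 3 correspond to a CPM of at most 0.0330, so depth limits mainly Aim2, Pyhin1, Pydc3 and Pydc4.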
